A study of Mus musculus with 6 samples.

Results

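Interferon-stimulated genes were examined in whole mouse kidney after 14 days of unilateral ureteral obstruction (UUO), a surgical model in which a tied ureter injures the tubules and scars the kidney. A fixed list named 43 genes that interferons are known to induce, and the rows of the deposited expression table with those symbols were taken. Of the 43 genes, 40 had a row among the 18849 rows of the table, and Mx1, Mx2 and Oas1b were not analysed here. The list was read as a whole and with Ifi44l, a relative of the interferon-induced gene Ifi44, set against the other members.

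The 3 control libraries came from male mice, 8 weeks old, with loxP sites in both copies of c-Abl (Abl1) and no Cre. The 3 knockout libraries came from male mice of the same age with the same floxed alleles plus Ksp-Cre, a recombinase under control of the Cdh16 (kidney-specific cadherin) promoter, which drives expression in tubule epithelium. Leukocytes, vessels and fibroblasts of the knockout kidneys are therefore not targeted. All 6 libraries came from obstructed kidneys and carry the strain label C57BL/6. The controls are labelled WT and the other group c-Abl knockdown, and they are called floxed and knockout here. Nothing in the labels says that each library came from a separate animal, and p-values therefore reflect only how far these libraries spread, which may be technical.

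Interferons are secreted proteins that bind receptors on nearby cells and, through JAK kinases and STAT proteins, switch on a large set of antiviral genes. Type I interferons act mainly through a complex that holds STAT2 and IRF9 and binds the interferon-stimulated response element, whereas interferon gamma acts mainly at the gamma-activated site. In the kidney, such genes are known to be expressed by tubule cells and by infiltrating leukocytes.

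Levels are FPKM, the number of fragments scaled to gene length and to library size, which allows genes to be compared per length. Where 3 values are given for a group, they are those of replicates 1, 2 and 3. A log2 fold change is the knockout mean less the floxed mean of log2(FPKM + 1), which understates the change of low genes. They were tested with limma over 13390 genes that read at least 1 FPKM in at least 3 libraries, with Benjamini-Hochberg adjustment at 0.05. The spacing of low values gave approximate depths of 16100000 to 18050000 fragments per library. The targeted gene Abl1 read 18.16, 15.93 and 17.33 FPKM in floxed kidneys, against 10.46, 14.45 and 12.91 FPKM in knockout kidneys. Those groups did not overlap, but Abl1 did not pass the limma test (adjusted p = 0.144). The kidney marker Umod was between 433.88 and 929.21 FPKM in every library. Knockout replicate 3 stood apart from its group: over all genes tested its correlation was 0.968 to 0.969 with the floxed libraries, and 0.941 and 0.960 with knockout replicates 1 and 2, so counts are also given without it.

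Among the 40 interferon-stimulated genes, Ifi44l alone passed the threshold, and it was higher in the knockout kidneys. It entered the test only through its knockout libraries and was singled out with earlier results known, so its p is no independent support. Over all genes tested 0.0672% passed, 0.0299% as higher and 0.0373% as lower. None of the other 39 members passed with all 6 libraries in limma, and 7 of them had an unadjusted limma p under 0.05, all lower. No member but Ifi44l was higher at that level, where 8.38% of all genes were. The 7 are 17.9% of the 39, against 16.3% of all genes called lower in this way. For 9 of the 39 (23.1%) every knockout library lay below every floxed library, and that held for 21.7% of all genes. Both shares lie near those of all genes. Of the 39, 33 had a log2 fold change below 0 (84.6%, against 65.4% of all genes tested), with values from -1.05 to 0.30.

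The median log2 fold change of the 40 genes was -0.27, and that of all genes tested was -0.12. With median-ratio scaling of the libraries the median of the 40 was -0.14 and that of all genes 0.0012, with 30 of the 40 below 0. With quantile scaling they were -0.18 and -0.0052, with 31 below 0. The median of the 40 thus lay below that of all genes under each of these scalings, while single members lay on both sides of it.

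**Figure D1:**
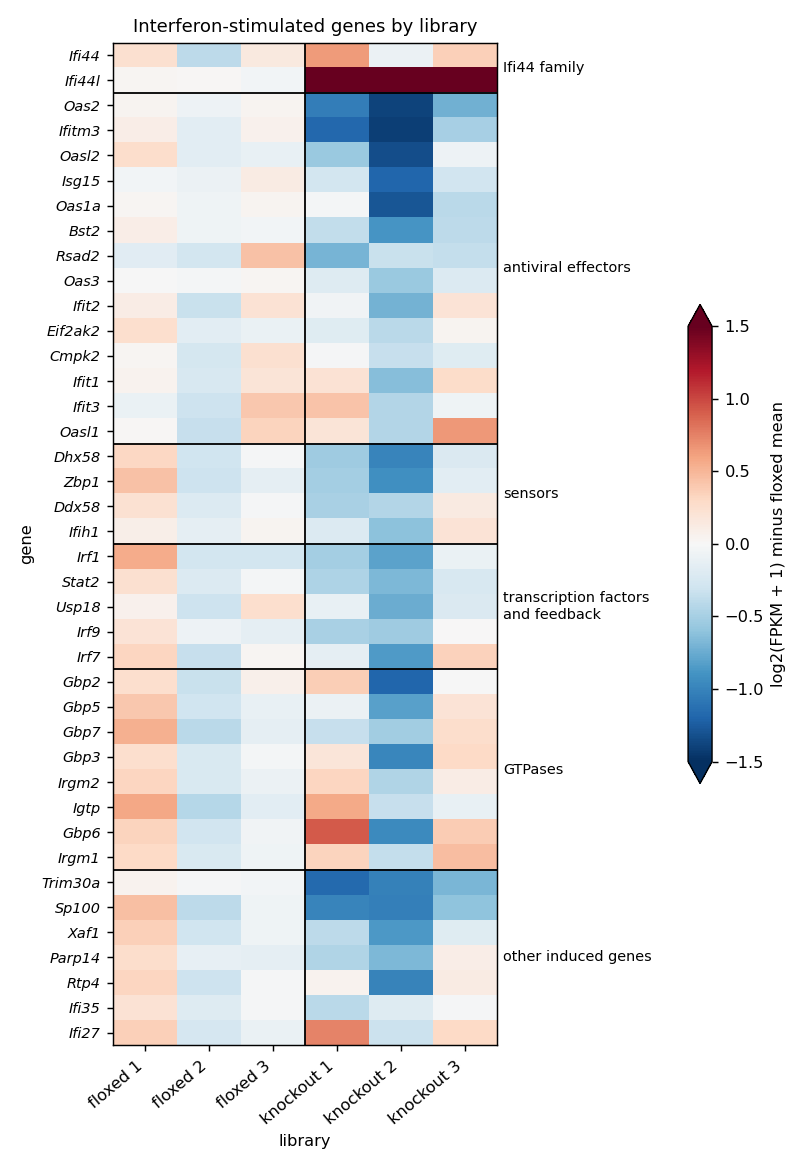
Heat map of log2(FPKM + 1) minus the mean of the 3 floxed libraries for the 40 interferon-stimulated genes (rows, grouped by role) in the 6 libraries (columns); red is above and blue below the floxed mean, and colours stop at 1.5 in either direction. Ifi44l is far above the floxed mean in all 3 knockout libraries, and knockout 2 is the bluest column.

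Ifi44l (Entrez 15061) lies beside Ifi44 on chromosome 3. RefSeq also lists it as H28, the name of a mouse minor histocompatibility antigen, meaning an antigen in which inbred strains differ. All 6 libraries carry the same strain label, and FPKM cannot show which strain's allele of Ifi44l a kidney carries. Whether the knockout line carries a segment of another strain at this locus, with another sequence or level of Ifi44l, was therefore not tested. Ifi44l read 0.09, 0.08 and 0.04 FPKM in floxed kidneys, against 23.06, 12.05 and 18.28 FPKM in knockout kidneys. At the estimated depths and a transcript of 1376 nucleotides, the floxed values stand for about 2.0, 2.0 and 1.0 fragments and the knockout values for about 534.7, 270.3 and 407.5. The gene was thus all but silent in every floxed kidney and clearly read in every knockout kidney.

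The log2 fold change of Ifi44l was 4.09 (SE 0.231, limma adjusted p = 0.00635), the largest absolute change and the smallest p among the 13390 genes. Summed over each group, 5 estimated fragments stood against 1212, a ratio of 255 per fragment sequenced with an exact 95% interval of 109 to 788. That interval takes the estimated fragments as counts and covers counting error only, not errors in depth, transcript length or rounding. Its limma call was lost without floxed replicate 2 (adjusted p = 0.0606) and without floxed replicate 3 (adjusted p = 0.0759), where the log2 fold change was still 4.10 and 4.07. With 3 against 3 libraries the exact two-sided permutation test gave p = 0.1, the smallest it can give.

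Ifi44, the nearest relative and neighbour of Ifi44l, read 9.18, 5.52 and 8.53 FPKM in floxed kidneys, against 12.36, 7.06 and 10.03 FPKM in knockout kidneys. Its groups overlapped, and it did not pass (log2 fold change 0.30, SE 0.246, limma adjusted p = 0.455). Ifi44l stood at 0.980%, 1.45% and 0.469% of the Ifi44 level in floxed replicates 1, 2 and 3, and at 187%, 171% and 182% in knockout replicates 1, 2 and 3. Within the knockout libraries both genes therefore kept nearly the same proportion, highest in replicate 1 and lowest in replicate 2. The log2 ratio of Ifi44l to Ifi44, with 1 FPKM added to each, differed between the groups by 3.79 (exact two-sided permutation p = 0.1, the smallest possible). This p is no independent support either, since Ifi44l was singled out with earlier results known.

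Of the 10 annotated genes nearest to Ifi44l, 5 on each side in RefSeq's gene order, 3 had a row in the table. Besides Ifi44 they were Ptgfr, a receptor for prostaglandin F, and Adgrl4, an adhesion receptor of endothelial cells. Ptgfr read 1.68, 2.82 and 1.53 FPKM in floxed kidneys, against 3.61, 7.12 and 3.32 FPKM in knockout kidneys. All 3 knockout values were above the floxed ones, but Ptgfr did not pass (log2 fold change 0.88, limma adjusted p = 0.136), and over all genes 10% had every knockout library above every floxed library. Adgrl4 read 10.72, 5.69 and 12.23 against 6.85, 9.19 and 8.44 FPKM, with overlapping groups. Among the 10 nearest genes with a row, a set added after values were seen, the other 7 had log2 fold changes from -1.44 to 0.066 and none passed. Of these, Nexn and Fubp1 had every knockout library below every floxed library, as 21.7% of all genes did, and the rest overlapped. Nexn read 5.94, 5.54 and 7.37 against 1.41, 1.40 and 2.27 FPKM (limma adjusted p = 0.0547), and Fubp1 had a log2 fold change of -0.55 (limma adjusted p = 0.0855). Near silence in the floxed libraries was seen in none of the 3 nearest neighbours.

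**Figure D2:**
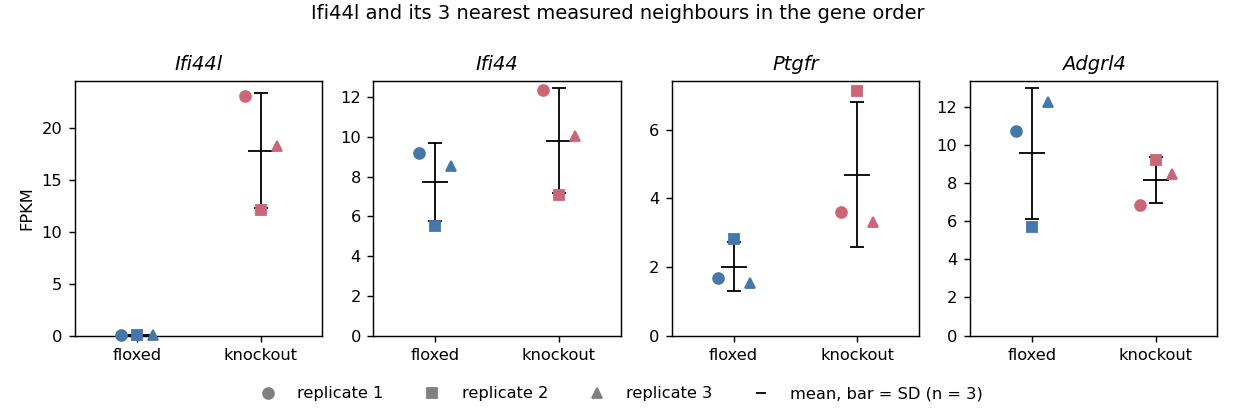
FPKM of Ifi44l and its 3 nearest measured neighbours (vertical axes, from 0) in floxed and knockout libraries; points are single libraries, and the black mark and bar are the mean and SD over 3 libraries. Ifi44l runs from at most 0.09 FPKM in floxed to at least 12.05 FPKM in knockout libraries, while Ifi44 and Adgrl4 overlap between the groups.

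Promoter sequences are shown to set Ifi44l beside its neighbour and beside 2 antiviral members that read low in the knockout libraries. They come from the RefSeq promoter table of GRCm38.p6, matched by Entrez identifier, since the expression values were made on mm9. Each is the 120 bases before the annotated start, 5′ to 3′ on the gene's strand, and capitals mark matches to GAAA, 2 free bases and GAAA again, a core of the interferon-stimulated response element, or to TTCNNNGAA, the letters of a gamma-activated site.
Ifi44l, minus strand, chr3:151762892-151763011: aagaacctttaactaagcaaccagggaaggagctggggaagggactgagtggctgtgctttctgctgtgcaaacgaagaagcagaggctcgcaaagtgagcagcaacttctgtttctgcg
Ifi44, minus strand, chr3:151749911-151750030: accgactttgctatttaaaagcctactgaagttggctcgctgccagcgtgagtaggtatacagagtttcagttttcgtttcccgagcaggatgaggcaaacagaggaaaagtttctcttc
Isg15, minus strand, chr4:156200819-156200938: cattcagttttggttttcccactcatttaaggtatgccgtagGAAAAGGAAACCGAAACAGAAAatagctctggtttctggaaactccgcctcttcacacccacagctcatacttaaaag
Oas3, minus strand, chr5:120777660-120777779: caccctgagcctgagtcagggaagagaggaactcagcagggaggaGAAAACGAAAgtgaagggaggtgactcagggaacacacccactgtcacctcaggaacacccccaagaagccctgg

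Isg15 held 3 overlapping matches to the response element core and Oas3 held 1. Other members also had every knockout library below every floxed library. Of these, Bst2, Rsad2, Stat2 and Trim30a held the core in the 250 bases before a start. Ifitm3 and Sp100 held neither motif there, and Oas2 was not found in the promoter table. Ifi44l and Ifi44 held no exact match to either motif in the 250 bases before their starts. Both motifs were searched on both strands in that window, and a match may overlap another. Of the 40 members, 32 were found in the promoter table with 38 annotated starts. The response element core was present before 16 of those 38 starts (42.1%), against 2.98% of all 32851 promoters of the same length. TTCNNNGAA was present before 9 of the 38 (23.7%), against 7.02% of all promoters. Bst2, Igtp, Irgm2, Oas1a, Gbp5 and Gbp7 held both. A match is a run of letters and not a shown binding site, and an element with another spacing is missed. The Ifi44 sequence above holds tttcagttttcgtttc, in which TTTC, the other strand of GAAA, recurs at other spacings. The lack of a match therefore does not show that Ifi44 or Ifi44l lacks a response element.

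Among the 14 antiviral effectors measured, 13 lay below 0 (65.4% of all genes did), 6 had knockout libraries that were all below the floxed ones (21.7% of all genes), and none passed the limma test. Oas2, an oligoadenylate synthetase that senses double-stranded RNA, read 13.03, 11.94 and 13.02 FPKM in floxed kidneys, against 5.63, 4.20 and 7.30 FPKM in knockout kidneys. Its knockout mean was 0.451 times the floxed mean, and it lay just outside the threshold (log2 fold change -1.05, SE 0.185, limma adjusted p = 0.0547). Ifitm3, a membrane protein that blocks virus entry and the most abundant member in floxed kidneys, read 259.15, 216.54 and 254.16 FPKM in floxed kidneys, against 106.77, 90.44 and 170.90 FPKM in knockout kidneys. That is a ratio of means of 0.504 (limma adjusted p = 0.0816), with knockout replicate 3 closest to the floxed libraries.

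Bst2, the protein tetherin that holds budding virus at the cell surface, read 92.86, 82.23 and 84.01 against 66.71, 46.43 and 65.57 FPKM (limma adjusted p = 0.119). Isg15, a ubiquitin-like modifier, read 32.40, 31.27 and 36.31 against 27.42, 14.01 and 27.17 FPKM (limma adjusted p = 0.215). In Bst2 and Isg15 the groups did not overlap, and knockout replicate 2 lay well under the other knockout libraries. Rsad2, the antiviral enzyme viperin, read 6.10, 5.57 and 9.82 against 3.92, 5.34 and 5.23 FPKM, a gap between groups far smaller than the spread within floxed (limma adjusted p = 0.246). Oas3 was the lowest of the oligoadenylate synthetases at 1.46, 1.42 and 1.51 against 1.15, 0.67 and 1.13 FPKM (limma adjusted p = 0.267).

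The IFIT genes, whose products bind foreign RNA, did not differ between the groups beyond their spread, with limma adjusted p from 0.668 to 0.962. Ifit1 averaged 8.71 ± 1.46 in floxed and 8.67 ± 3.02 FPKM in knockout libraries (SD, n = 3). Ifit3 averaged 46.4 ± 12.6 and 46.0 ± 14.4 FPKM, and Ifit2 15.7 ± 3.18 and 14.0 ± 4.56 FPKM. With median-ratio scaling the log2 fold changes of Ifit1 and Ifit3 crossed 0. Oasl1, an oligoadenylate synthetase-like protein, was the only effector above 0 (7.34 ± 1.93 and 8.40 ± 3.38 FPKM). The remaining effectors, Oasl2, Oas1a, Eif2ak2 and Cmpk2, overlapped between the groups with log2 fold changes from -0.66 to -0.18.

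All 4 sensors of nucleic acid lay below 0, none passed, and in each the groups overlapped. Dhx58, a regulator of the RNA helicase sensors, read 7.35, 4.46 and 5.67 FPKM in floxed kidneys, against 3.63, 2.39 and 4.77 FPKM in knockout kidneys (log2 fold change -0.58, limma adjusted p = 0.202). Zbp1, which binds Z-form nucleic acid and can start cell death, read 20.33, 11.61 and 13.34 against 9.99, 7.28 and 13.09 FPKM (limma adjusted p = 0.255). In both genes knockout replicate 3 lay inside the floxed range. Ddx58, the RNA sensor RIG-I, read 27.17, 19.90 and 22.79 against 16.14, 16.73 and 25.39 FPKM, and Ifih1, a sensor of long double-stranded RNA, 8.76, 7.37 and 8.46 against 6.98, 4.99 and 9.56 FPKM.

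The transcription factors and the feedback gene Usp18 were likewise all 5 below 0 with none past the threshold. Stat2, the STAT protein particular to type I and type III interferon signalling, was the only 1 of the 5 whose groups did not overlap. That is 20%, against 21.7% of all genes with every knockout library below every floxed library. Stat2 read 23.10, 16.63 and 18.97 against 13.77, 11.80 and 16.31 FPKM (log2 fold change -0.46, limma adjusted p = 0.166). Its partner Irf9 read 44.71, 36.37 and 35.11 against 27.18, 26.32 and 38.54 FPKM, with knockout replicate 3 above 2 of the floxed libraries. Irf1, a factor induced strongly by interferon gamma, read 76.26, 42.27 and 42.48 against 35.79, 29.06 and 48.22 FPKM, with floxed replicate 1 far above the other 5 libraries. Usp18, which removes ISG15 from proteins and dampens the receptor, read 7.92, 5.85 and 9.11 against 6.91, 4.09 and 6.31 FPKM. Irf7, which amplifies type I interferon production, averaged 40.1 ± 9.31 and 35.9 ± 14.5 FPKM.

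The 8 GTPases, which act against pathogens inside cells and are known above all as interferon gamma targets, had a median near that of all genes and none past the threshold. Their median log2 fold change was -0.084, 5 of 8 were below 0 and all 8 overlapped between the groups. The smallest limma adjusted p was 0.642, for Gbp5, at 11.98, 6.96 and 8.03 against 8.21, 4.57 and 10.28 FPKM. Gbp2 read 56.31, 37.22 and 49.76 against 61.06, 20.07 and 46.86 FPKM, so knockout libraries gave both the highest and the lowest value. Gbp7 read 19.82, 9.91 and 12.15 against 10.37, 9.06 and 16.27 FPKM, and Irgm1 77.11, 53.38 and 59.78 against 79.29, 48.75 and 86.75 FPKM. Gbp6 spread widely for its level in the knockout libraries, at 23.40, 5.61 and 15.75 FPKM. Gbp3, Igtp and Irgm2 had log2 fold changes of -0.16, 0.038 and -0.0044, and the last 2 crossed 0 under other scalings.

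Among the 7 other induced genes, Trim30a and Sp100 had knockout libraries that were all below the floxed ones (28.6%, against 21.7% of all genes). Trim30a, a tripartite-motif protein that restrains inflammatory signalling, read 16.59, 15.82 and 15.49 FPKM in floxed kidneys, against 6.55, 7.40 and 9.51 FPKM in knockout kidneys (log2 fold change -0.96, SE 0.150, limma adjusted p = 0.0547). It had the smallest p of the members after Ifi44l. Sp100, a protein of PML nuclear bodies, read 37.68, 20.40 and 26.06 against 13.24, 12.89 and 17.52 FPKM (limma adjusted p = 0.101). Xaf1, a pro-apoptotic protein, read 22.55, 14.00 and 16.59 against 13.06, 9.10 and 15.22 FPKM, and Parp14, an ADP-ribosyltransferase, 21.40, 16.10 and 16.04 against 12.65, 10.69 and 19.01 FPKM. Ifi27 lay above 0 (121 ± 27.8 and 148 ± 52.7 FPKM) and Ifi35 and Rtp4 below it, with limma adjusted p from 0.423 to 0.609.

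**Figure D3:**
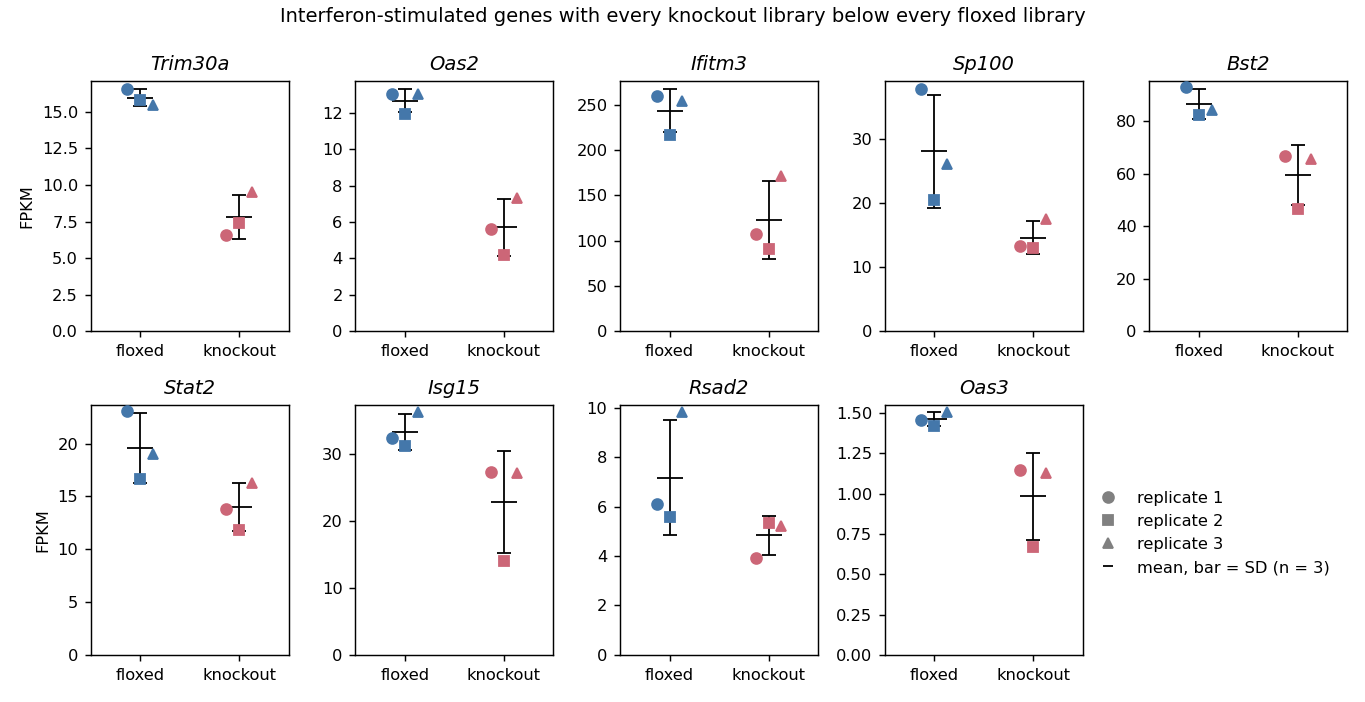
FPKM (vertical axes, from 0) of the 9 interferon-stimulated genes in which all 3 knockout libraries lay below all 3 floxed libraries, in order of limma p; points are single libraries, and the black mark and bar are the mean and SD over 3 libraries. Trim30a and Oas2 have clearly separate groups while those of Rsad2 nearly touch, and none of the 9 passed the adjusted threshold.

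Most members were lowest in the same library. Knockout replicate 2 held the lowest value of the 6 libraries in 33 of the 40 genes (82.5%), and in 14.8% of all genes tested. Floxed replicate 1 held the highest value in 20 of the 40 (50%), and in 34.4% of all genes. Without Ifi44l, the median of the members was -0.20, -0.71 and -0.021 from the floxed mean in the 3 knockout libraries, and 0.25, -0.25 and -0.022 in the 3 floxed libraries. Knockout replicate 2 was thus the only library far below the floxed spread. For all genes the same medians were -0.23, -0.12 and -0.032 in the knockout replicates.

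Leaving out knockout replicate 2 brought the median of the 40 genes from -0.27 to -0.13 and the number below 0 from 33 to 23. The GTPases differed most between the knockout libraries, with medians of 0.33, -0.66 and 0.23 in replicates 1, 2 and 3. The sensors were at -0.50, -0.77 and -0.012, and the transcription factors and Usp18 at -0.47, -0.74 and -0.095. Ifi44l was 4.49, 3.61 and 4.17 above its floxed mean, also with replicate 2 lowest. It was well above that mean also in knockout replicate 3, where the median of the other members was -0.021. Single members lay on both sides there, such as Oas2 at -0.72 and Oasl1 at 0.65 from their floxed means.

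**Figure D4:**
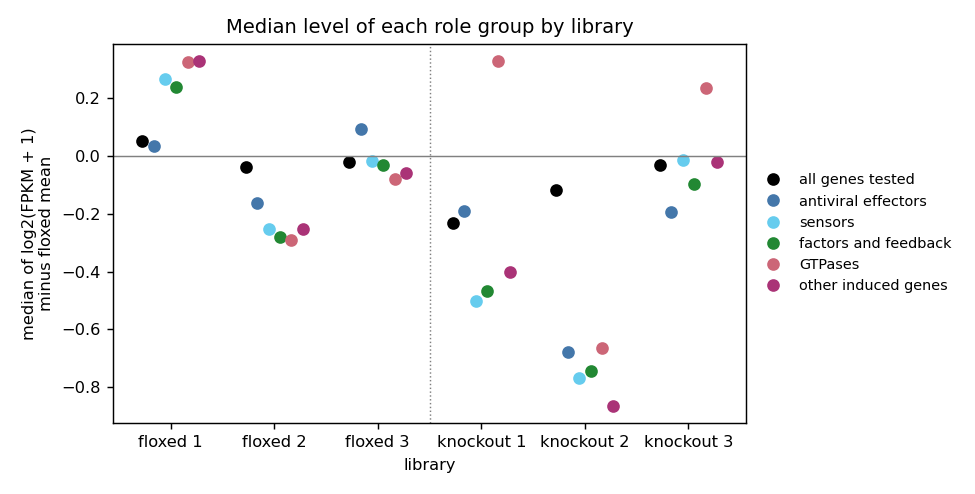
Median of log2(FPKM + 1) minus the floxed mean (vertical axis) for 5 role groups of the interferon-stimulated genes and for all genes tested, in each of the 6 libraries (horizontal axis); each point is 1 group in 1 library, and the Ifi44 family is left out. All 5 groups lie between -0.66 and -0.86 in knockout 2, while the GTPases lie above 0 in knockout 1 and knockout 3.

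Without knockout replicate 3, the library that lay toward the floxed ones, 7 of the other 39 members passed as lower (17.9%, against 15.4% of all genes) and Ifi44l as higher (9.02% of all genes). The 7 were Oas2, Oasl2, Irf9, Bst2, Ifitm3, Trim30a and Sp100, and the limma adjusted p ran from 0.00382 for Ifitm3 to 0.0437 for Oasl2.

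Parts of the pathway outside the list were read from lists of ligands, receptors, sensors and further induced genes. Of 19 interferon genes, 6 had a row and none reached the filter. Ifnb1, the gene of interferon beta, was listed at 0 in every library, and Ifng, that of interferon gamma, read 0.90, 0.27 and 0.54 FPKM in floxed kidneys, against 0.73, 0 and 0.60 FPKM in knockout kidneys. Ifna1 and Ifnab, genes of the interferon alpha family, were listed above 0 in knockout replicate 2 alone, at 0.11 and 0.09 FPKM. Ifnz and Ifnk were listed above 0 in floxed libraries alone. Ifnz read 0.26, 0 and 0.10 FPKM there, and Ifnk 0.07 FPKM in floxed replicate 3 only. Messenger RNA of Ifnb1, Ifna1 and Ifnab was thus at or near the limit of these depths in both groups. Ifng was low but was read in every library except knockout replicate 2. Nothing can be said of the interferon genes without a row.

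All 16 receptor, JAK and STAT genes lay below 0 (median -0.42), 6 without overlap (21.7% of all genes), and none passed. The signal inhibitor Socs1 read 8.56, 5.39 and 5.41 against 3.27, 2.14 and 4.22 FPKM (limma adjusted p = 0.117). The receptor chain Ifnar2 read 55.23, 49.39 and 50.61 against 35.70, 38.86 and 43.25 FPKM (limma adjusted p = 0.118), and the kinase Tyk2 18.62, 13.06 and 13.98 against 9.33, 10.07 and 11.85 FPKM (limma adjusted p = 0.141). Of 22 genes of nucleic acid sensing, 17 lay below 0 and 10 did so without overlap, among them the macrophage factor Irf5 at 23.39, 24.12 and 25.40 against 11.70, 13.11 and 18.63 FPKM (limma adjusted p = 0.0854). The endosomal RNA receptor Tlr7 and the nucleotide hydrolase Samhd1 had limma adjusted p of 0.0876 and 0.0979. None of the 22 passed. Mavs, the mitochondrial adaptor of RIG-I, lay the other way at 27.02, 24.23 and 24.27 against 37.90, 37.08 and 30.55 FPKM (limma adjusted p = 0.102). Without knockout replicate 3, 9 of the 16 and 10 of the 22 passed as lower, where 15.4% of all genes did, and 1 of the 22 as higher.

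All 12 genes of antigen processing lay below 0 (median -0.31), 1 without overlap (8.33%, against 21.7% of all genes), and none passed. That gene was Nlrc5, an activator of class I genes, at 14.97, 6.95 and 7.65 against 4.70, 4.39 and 6.87 FPKM (limma adjusted p = 0.190). The light chain B2m and the proteasome subunit Psmb10 overlapped (limma adjusted p = 0.254 and 0.270). Of the interferon-induced chemokines, Cxcl9 read 17.08, 8.65 and 10.51 against 12.95, 2.97 and 4.59 FPKM and Cxcl10 40.53, 41.16 and 45.05 against 27.49, 13.95 and 47.31 FPKM, both with overlap, and Ccl5 had a log2 fold change of 0.010.

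Among 47 further interferon-induced genes that are no members, 43 lay below 0 (median -0.58) and 23 did so without overlap, which is 48.9%, against 21.7% of all genes. None passed. The nuclear DNA-binding protein Ifi203 read 25.09, 17.28 and 21.26 against 6.40, 7.41 and 8.71 FPKM. Slfn8 and Slfn5, members of the Schlafen family, read 7.81, 6.49 and 7.39 against 2.87, 2.47 and 3.82 FPKM, and 21.85, 19.53 and 27.45 against 7.42, 9.02 and 11.95 FPKM. All of these had a limma adjusted p of 0.0547. Without knockout replicate 3, 18 of the 47 passed as lower (38.3%), against 15.4% of all genes.

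Markers of macrophages, dendritic cells, fibroblasts and endothelium lay lower in the knockout kidneys. Of all genes tested, 65.4% lay below 0 and 21.7% had every knockout library below every floxed library. In whole tissue, fewer cells of a type and less RNA per cell cannot be told apart. All 11 macrophage markers tested, of 12 listed, lay below 0 (median -1.14), 10 without overlap, and their summed level was 1778 to 2616 FPKM in floxed and 706 to 1355 FPKM in knockout libraries. Ms4a7 passed as lower (limma adjusted p = 0.0446), and C1qc read 214.04, 274.53 and 245.17 against 98.01, 86.53 and 145.44 FPKM (limma adjusted p = 0.0599). Without knockout replicate 3 all 11 passed as lower, where 15.4% of all genes did. No macrophage marker was at 0 throughout. All 8 fibroblast markers lay below 0 (median -1.72), 7 without overlap, with sums of 541 to 684 FPKM in floxed and 103 to 346 FPKM in knockout libraries, and Dpt, a matrix protein, passed as lower (limma adjusted p = 0.0446). All 5 dendritic cell markers (median -0.69) and all 7 endothelial markers (median -0.46) lay below 0 as well, and none passed. Of these, 4 and 2 did not overlap (80% and 28.6%), and the endothelial share lies near that of all genes. The part of these cell types in the values of Ifi44l, Oas2, Trim30a, Ifitm3 and the other members was not tested.

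Lymphocyte markers stood out in floxed replicate 1, the library that most often held the highest value among the members. The summed level of 9 T cell markers was 148 FPKM there, 37.6 to 40.7 FPKM in the other floxed libraries and 33.1 to 47.0 FPKM in the knockout libraries. For 5 B cell markers it was 89.7 FPKM there, 6.53 to 6.90 FPKM in the other floxed libraries and 7.19 to 21.3 FPKM in the knockout libraries. None of these markers was at 0 throughout. Without floxed replicate 1 the median of the 40 genes was -0.16, against -0.27 with all libraries, and 31 lay below 0. Of 5 markers of plasmacytoid dendritic cells, known as strong producers of type I interferon, only Spib reached the filter, at 5.69, 3.74 and 2.64 against 1.05, 1.02 and 1.56 FPKM (limma adjusted p = 0.0719). Klk1b27 lay the other way at 0.64, 0.07 and 0.11 against 0.84, 1.60 and 1.18 FPKM. Siglech, like Spib, was lower, at 1.39, 1.10 and 0.69 against 0.68, 0.48 and 0.58 FPKM. Ccr9 and Cox6a2 overlapped, with knockout means 0.545 and 1.98 times the floxed means. None of the 5 was at 0 throughout. Of 7 natural killer cell markers, the 3 tested (Nkg7, Gzma and Gzmb) lay above 0 and none passed. Ncr1, Klrb1c, Prf1 and Eomes were too low for the filter. Their knockout means were 0.662, 0.655, 0.758 and 0.702 times the floxed means, with overlapping groups. The part of lymphocytes and of these cells in the members' levels was not tested. Proximal tubule markers lay the other way, with all 10 above 0 (median 1.17), while 65.4% of all genes tested lay below 0. None of the 10 passed, and 3 did not overlap (30%, against 10% of all genes with every knockout library above). Their summed level was 930 to 1486 FPKM in floxed libraries, and 5047, 3709 and 1267 FPKM in knockout replicates 1, 2 and 3. In knockout replicate 3 the sum thus lay within the floxed range. Their median there was 0.12 from the floxed mean, and 4 of the 10 lay below 0.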

How the data were processed

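RNA of whole kidney was extracted with TRIzol and sequenced on Illumina chemistry, as the labels state. The authors deposited 1 table of FPKM per gene and library, rounded to 2 decimals, per the file headers, made on mm9, per the submitters' processing notes. For aligner, counting tool, annotation, strand use and filters: not given in the sources used here. Hence near-identical copies (Gbp, Oas1, Ifit3, Ifitm and Trim30 families) and overlapping genes are uncertain. FPKM is relative to all mapped fragments, so abundant genes can move the rest.

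Groups and replicate numbers came from the sample titles. The filter, 1 FPKM or more in 3 or more libraries, left 13390 genes. All 40 members with a row passed. Each gene's log2(FPKM + 1) was fitted on group alone in limma 3.58.1 (R 4.3.3), with the trend option. The script was tested on simulated data. Single values had exact permutation tests. Depth was estimated from genes of 300 to 2000 nucleotides, where 67.0% to 70.0% of low values came out whole to within 0.2 fragments. Python 3.11.15, numpy 2.4.6, pandas 2.3.3, scipy 1.17.1 and matplotlib 3.10.9 did the rest. RefSeq's gene table (GRCm38.p6) gave names and neighbours, and held 18792 of the gene identifiers, and 26 symbols turned into dates were restored through it.

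Members, lists, tests and alternatives were chosen with earlier results of these data known, the choice of Ifi44l included. Named with every value were Ifi44l, Ifi44, members past the threshold or without overlap, the 4 smallest p of each role group and up to 3 of each pathway list. Genes named beyond that rule were chosen after their values were seen. Alternatives were another pseudocount, other filters and scalings, limma without trend or with array weights, a replicate block and each library left out.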

Additional observations from a re-analysis of the deposited data

How the results depend on the processing

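The count of all genes past the threshold, 9, was 1 with a pseudocount of 0.1, with a mean FPKM of at least 5, with median-ratio or quantile scaling and without the trend, 0 with no filter (3843 at an unadjusted limma p under 0.05), 1456 with array weights (868 lower; the weights stopped before convergence) and 0 to 3271 with each library left out. An alternative chosen after seeing the data, no filter but without the genes at 0 in every library, gave 1. The count of members, 1, was 0 with no filter (8 at an unadjusted limma p under 0.05), 4 with array weights (also Oas2, Ifitm3 and Trim30a as lower) and 0 to 8 with each library left out. Ifi44l kept its log2 fold change of 4.09 with no filter but not its call (limma adjusted p = 0.0755; 0.0346 without the genes at 0), and ran from 3.89 to 4.33 with each library left out. Over its alternatives its adjusted p ran from 0.00133 to 0.0759. The difference in the log2 ratio of Ifi44l to Ifi44 was 6.35 with a pseudocount of 0.1 and 4.64 with TPM scaling.

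The replicate block gave 2 genes past the threshold, and Ifi44l passed with it (limma adjusted p = 0.0409). Same-numbered libraries had correlations of -0.126, -0.07 and 0.034 in their deviations from the group means. The other pairs of a floxed and a knockout library ran from -0.122 to 0.135. With 3 libraries per group these values cannot show whether same-numbered mice were paired, and no label says that they were.

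Some members crossed 0 without passing. Ifit1 (0.074), Ifit3 (0.11) and Irgm2 (0.13) did so with median-ratio scaling, Ifit1 (0.11) and Irgm2 (0.062) with quantile scaling, Igtp (-0.016) with TPM scaling and Irgm2 (0.094) with array weights. With each library left out, the log2 fold change ran from -0.21 to 0.24 for Ifit1, -0.38 to 0.077 for Ifit2, -0.25 to 0.19 for Ifit3, -0.12 to 0.42 for Oasl1, -0.49 to 0.11 for Irf7 and -0.41 to 0.00048 for Ifih1. It ran from -0.60 to 0.18 for Gbp2, -0.40 to 0.24 for Gbp3, -0.45 to 0.061 for Gbp5, -0.29 to 0.65 for Gbp6 and -0.43 to 0.067 for Gbp7. For Igtp it was -0.23 to 0.33, for Irgm1 -0.011 to 0.40, for Irgm2 -0.17 to 0.22, for Rtp4 -0.47 to 0.088 and for Ifi27 -0.0079 to 0.53. The causes were not tested. Depth limits Ifi44l in floxed kidneys and the interferon ligands with a row other than Ifng, which rest on a few fragments at most.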
